A study of Homo sapiens with 8 samples.

Results

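The genes described here make cholesterol or control how much of it a cell makes and takes up. They are HMGCS1, IDI1, SQLE, MSMO1 and DHCR7, which encode enzymes of the pathway, and INSIG1 and SREBF2, which encode its regulators. They were followed in human ovarian cancer cell lines with and without pI:pC. A probe set, the group of short probes that measures a transcript on an Affymetrix array, was taken when its only gene symbol in the platform annotation was one of 8 listed genes. This gave 15 probe sets of 7 genes, out of 22215 probe sets and 11963 genes on the array. HMGCS1, DHCR7, IDI1 and SREBF2 have 2 probe sets each, INSIG1 and SQLE have 3, and MSMO1 has 1. FDFT1, the eighth listed gene, has no probe set under this rule and was not analysed here.

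The study had 8 arrays, 4 from cells given pI:pC and 4 from untreated cells. Each group held 1 array each of the established human ovarian cancer lines SKOV-3 and DOV-13, CAOV-3 and OVCAR-3, grown in medium with fetal bovine serum. pI:pC is polyriboinosinic:polyribocytidylic acid, a man-made RNA duplex of the kind that viruses leave in cells. It was added at concentrations that the labels do not tie to arrays, and no exposure time is given. The 2 arrays of a line are compared directly below, and such a difference has no replicate check. Serum carries cholesterol, and it was present in both groups. The labels do not say whether the arrays came from separately grown cultures, so a p-value over the lines measures the spread between lines only.

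Cholesterol is built from acetyl-CoA through mevalonate, isoprenoids, squalene and a series of sterols. Its supply is set by the transcription factor SREBP-2, the product of SREBF2, which is held in the endoplasmic reticulum with its escort SCAP by INSIG proteins while sterols are plentiful. When sterols run low SREBP-2 is released, enters the nucleus and switches on the enzymes, the low-density lipoprotein receptor and INSIG1 itself. Interferon signalling is known to lower sterol synthesis in mouse macrophages, in part through 25-hydroxycholesterol, the product of CH25H, which keeps SREBP-2 in the endoplasmic reticulum.

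The promoters of the members are shown because SREBP-2 is known to act at promoters of this pathway together with NF-Y, which binds CCAAT boxes. For 4 genes the 250 bases before a RefSeq transcription start are given on the gene's own strand, from the GRCh38.p14 promoter table, in which 6 of the 7 measured genes were matched and SQLE was not. Capitals mark CCAAT, read on either strand, and the sterol regulatory element searched as TCACNCCAC. The windows lie at chr22:41832855-41833104 on the plus strand for SREBF2, chr7:155297628-155297877 on the plus strand for INSIG1, chr4:165327419-165327668 on the plus strand for MSMO1 and chr5:43313413-43313662 on the minus strand for HMGCS1, the last being the first of its 2 windows in the table.
SREBF2: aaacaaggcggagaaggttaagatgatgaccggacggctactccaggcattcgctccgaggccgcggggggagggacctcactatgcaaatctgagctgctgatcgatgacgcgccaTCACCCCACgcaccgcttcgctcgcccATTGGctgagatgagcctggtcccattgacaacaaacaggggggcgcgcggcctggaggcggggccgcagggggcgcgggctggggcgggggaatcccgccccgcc
INSIG1: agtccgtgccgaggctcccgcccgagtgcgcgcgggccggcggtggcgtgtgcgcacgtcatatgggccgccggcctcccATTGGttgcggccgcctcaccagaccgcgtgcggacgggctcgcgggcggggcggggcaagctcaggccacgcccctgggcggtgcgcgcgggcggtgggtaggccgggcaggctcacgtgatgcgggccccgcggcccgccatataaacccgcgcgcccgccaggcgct
HMGCS1: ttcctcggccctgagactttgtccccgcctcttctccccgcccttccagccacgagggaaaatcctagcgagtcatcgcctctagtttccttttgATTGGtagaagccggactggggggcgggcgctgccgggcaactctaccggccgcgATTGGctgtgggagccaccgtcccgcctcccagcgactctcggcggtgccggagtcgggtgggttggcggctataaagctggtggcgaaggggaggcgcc
MSMO1: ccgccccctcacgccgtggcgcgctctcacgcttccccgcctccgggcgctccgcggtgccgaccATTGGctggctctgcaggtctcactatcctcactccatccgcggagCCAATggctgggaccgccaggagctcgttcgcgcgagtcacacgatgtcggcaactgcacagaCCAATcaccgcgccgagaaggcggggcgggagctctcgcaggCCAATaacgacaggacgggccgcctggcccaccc

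Letters of the sterol regulatory element, on either strand, were found in 1 of the 10 promoter windows of these genes, the SREBF2 window, where the match starts 133 bases before the transcription start. They occur in 310 of all 35116 windows (0.883%). CCAAT was found in 7 of the 10 windows and in at least 1 window of each of the 6 genes, against 32% of all windows. MSMO1 has 4 CCAAT matches in its window, HMGCS1 and DHCR7 have 2 in 1 of their 2 windows, and INSIG1 and SREBF2 have 1. IDI1, with 3 windows in the table, has CCAAT in 2 of them, and in one of those 2 matches overlap because the sequence reads the same on both strands. The GC box GGGCGG was found in 9 of the 10 windows and in 42.6% of all windows. The E-box CACGTG was found in the INSIG1 window alone of the 10, and in 6.34% of all windows. These matches are descriptions of letters and not of bound sites.

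In CAOV-3 all 15 probe sets were lower after pI:pC, where 53.1% of all probe sets were. The genes other than SREBF2 were lower there by 0.55 or more on the log2 scale, on each of their 13 probe sets. The differences of these 13 probe sets, treated minus untreated, lay between -1.30 and -0.55 in CAOV-3. The same probe sets lay between -0.54 and 0.18 in SKOV-3. In DOV-13 their range was -0.22 to 0.18, and for OVCAR-3 it was -0.11 to 0.17. Of all 15 probe sets, 13 were lower by 0.5 or more in CAOV-3, where 1.92% of all probe sets were, and 5 were lower by 1 or more, where 0.14% of all were. SKOV-3 had 1 of the 15 lower by 0.5 or more, DHCR7 201790_s_at (1.16% of all probe sets), and DOV-13 and OVCAR-3 had 0 (0.351% and 0.491% of all). None of the 15 was higher by 0.5 or more in any line, where 0.324% of all probe sets were in SKOV-3, 0.491% in DOV-13, 2.63% in CAOV-3 and 0.765% in OVCAR-3. With 1 array per condition these counts describe array pairs, and the difference between CAOV-3 and the other lines was not tested. In bulk RNA, fewer cells with a transcript and less of it per cell cannot be told apart.

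**Figure D1:**
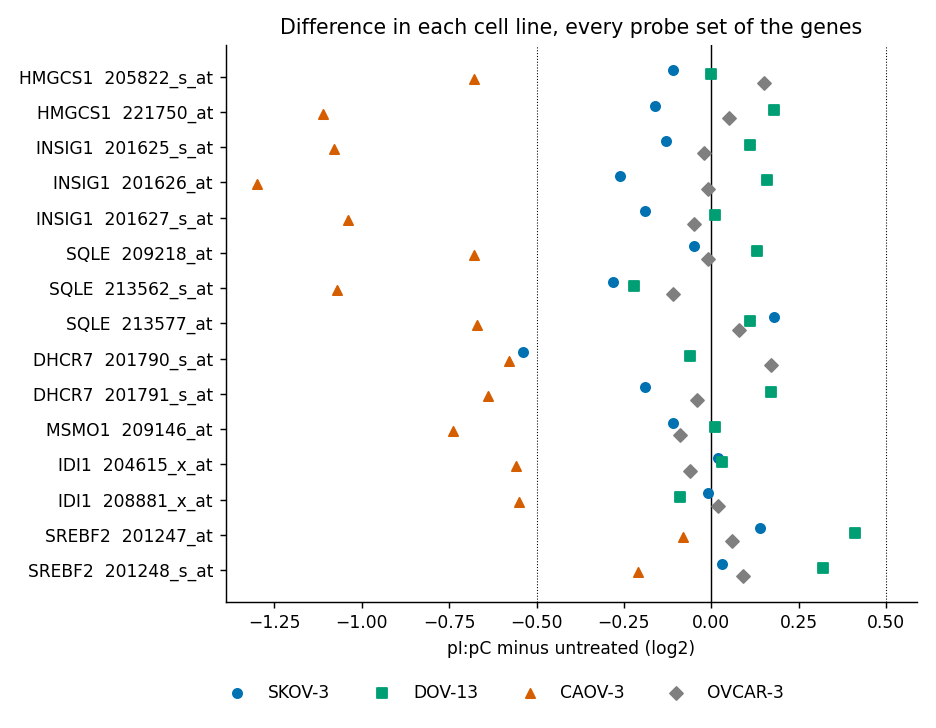
Difference in log2 level, pI:pC minus untreated, of the 15 probe sets (rows) in each of the 4 cell lines (markers, 1 array pair each). Dotted lines mark 0.5 in size. The CAOV-3 markers of the 13 enzyme and INSIG1 probe sets lie between -1.30 and -0.55, left of the dotted line, and those of SREBF2 at -0.08 and -0.21.

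INSIG1 (chr7:155297878-155310235), which encodes the protein that retains SREBP-2, had the lowest difference of all 15. On probe set 201626_at its log2 levels after pI:pC were 7.88 in SKOV-3, 9.01 in DOV-13, 7.97 in CAOV-3 and 8.56 in OVCAR-3. The untreated levels were 8.14 in SKOV-3, 8.85 in DOV-13, 9.28 in CAOV-3 and 8.57 in OVCAR-3. Untreated CAOV-3 cells thus had the highest level of the 4 untreated arrays, and treated CAOV-3 cells lay just above the lowest of the treated ones, while the groups overlapped. The CAOV-3 difference of -1.30 is a linear ratio of 0.405 and was the 10th lowest of 22215 probe sets in that line. The other INSIG1 probe sets, 201625_s_at and 201627_s_at, had -1.08 and -1.04 in CAOV-3. In OVCAR-3 the 3 lay between -0.05 and -0.01, in DOV-13 between 0.01 and 0.16, and in SKOV-3 between -0.26 and -0.13. The mean change of 201626_at over the lines was -0.35 ± 0.66 (SD, n = 4 lines), and without CAOV-3 it was -0.037.

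HMGCS1 (chr5:43287470-43313412) encodes the synthase that makes HMG-CoA, the substrate of the rate-limiting reductase. Probe set 221750_at read 9.46 in SKOV-3, 7.73 in DOV-13, 7.86 in CAOV-3 and 10.57 in OVCAR-3 after pI:pC, against 9.62 in SKOV-3, 7.55 in DOV-13, 8.97 in CAOV-3 and 10.52 in OVCAR-3 untreated. OVCAR-3 was highest in both groups, and the treated and untreated arrays overlapped. The CAOV-3 difference was -1.11, a linear ratio of 0.465 and the 19th lowest in that line, and the other lines lay between -0.16 and 0.18. The dimmer probe set 205822_s_at had -0.68 in CAOV-3 and between -0.11 and 0.15 elsewhere. Its level was above the array's median probe set on 5 of the 8 arrays, which limits how well it can show a difference.

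IDI1 (chr10:1039152-1056704) encodes the isomerase that readies isoprenoid units for chain building. Its 2 probe sets gave nearly the same values, -0.56 and -0.55 in CAOV-3 and between -0.09 and 0.03 in the other lines. Probe set 204615_x_at read 9.52 in SKOV-3, 9.02 in DOV-13, 9.97 in CAOV-3 and 9.00 in OVCAR-3 after pI:pC, against 9.51 in SKOV-3, 8.99 in DOV-13, 10.53 in CAOV-3 and 9.06 in OVCAR-3 untreated. CAOV-3 had the highest level in both groups. Both probe sets carry the suffix that the maker gives to sets with probes that may also match other transcripts.

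SQLE (chr8:124998505-125022283) encodes squalene epoxidase, which adds the first oxygen of the sterol part of the pathway. Probe set 209218_at read 10.06 in SKOV-3, 9.01 in DOV-13, 8.69 in CAOV-3 and 9.77 in OVCAR-3 after pI:pC, against 10.11 in SKOV-3, 8.88 in DOV-13, 9.36 in CAOV-3 and 9.79 in OVCAR-3 untreated. CAOV-3 was the lowest treated line and not the lowest untreated one. The CAOV-3 difference was -0.68 on this probe set, -1.07 on 213562_s_at and -0.67 on 213577_at. The 3 probe sets disagreed in sign in each of the other lines, where they lay between -0.28 and 0.18. Probe set 213562_s_at was the only one of the 15 that was lower in all 4 lines, and none was higher in all. Of all probe sets, 11.5% had the same sign in all 4 lines, in either direction. The mean change of 213562_s_at was -0.42 ± 0.44 (SD, n = 4 lines) and -0.204 without CAOV-3. Its level was above the array's median probe set on 6 of the 8 arrays, which limits how well it can show a difference.

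MSMO1 (chr4:165327669-165343164) encodes a methyl oxidase that strips methyl groups from sterol intermediates. Its probe set 209146_at read 9.99 in SKOV-3, 9.20 in DOV-13, 9.90 in CAOV-3 and 10.43 in OVCAR-3 after pI:pC, against 10.10 in SKOV-3, 9.19 in DOV-13, 10.64 in CAOV-3 and 10.52 in OVCAR-3 untreated. The difference was -0.74 in CAOV-3, a linear ratio of 0.598, and between -0.11 and 0.01 in the other lines. CAOV-3 was the highest untreated line and the second lowest treated one.

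DHCR7 (chr11:71427287-71449043) encodes the reductase that finishes cholesterol from 7-dehydrocholesterol. Probe set 201790_s_at read 6.90 in SKOV-3, 7.94 in DOV-13, 7.88 in CAOV-3 and 8.07 in OVCAR-3 after pI:pC, against 7.44 in SKOV-3, 8.46 in CAOV-3 and 7.90 in OVCAR-3 untreated, with a difference of -0.06 in DOV-13. It differed by -0.58 in CAOV-3 and by -0.54 in SKOV-3, the one value under -0.5 outside CAOV-3. The SKOV-3 difference on the second probe set, 201791_s_at, was -0.19, while CAOV-3 had -0.64. In DOV-13 and OVCAR-3 the 2 probe sets had opposite signs, within -0.06 to 0.17.

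SREBF2 (chr22:41833105-41907305), which encodes SREBP-2 itself, was lower in CAOV-3 by less than the other genes, -0.08 and -0.21 on its 2 probe sets. Probe set 201247_at read 7.91 in SKOV-3, 7.33 in DOV-13, 7.81 in CAOV-3 and 7.94 in OVCAR-3 after pI:pC, against 7.78 in SKOV-3, 6.92 in DOV-13, 7.89 in CAOV-3 and 7.87 in OVCAR-3 untreated. Its differences were 0.14 in SKOV-3, 0.41 in DOV-13, -0.08 in CAOV-3 and 0.06 in OVCAR-3. The second probe set, 201248_s_at, had 0.03 in SKOV-3, 0.32 in DOV-13, -0.21 in CAOV-3 and 0.09 in OVCAR-3. Both thus had their highest difference in DOV-13, the line with the lowest untreated level. The mean change of 201247_at was 0.13 ± 0.20 and that of 201248_s_at 0.05 ± 0.22 (SD, n = 4 lines each). Without DOV-13 the mean change was 0.039 for 201247_at and -0.033 for 201248_s_at.

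**Figure D2:**
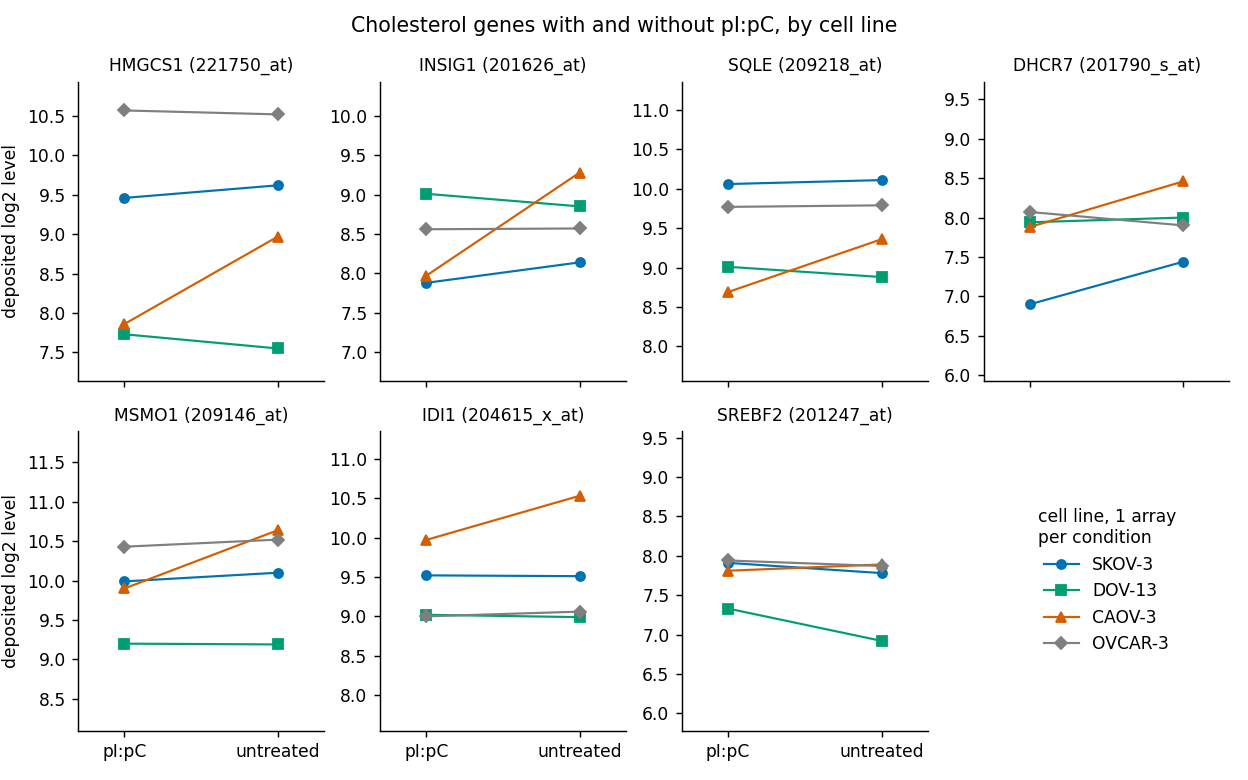
Deposited log2 level of the highest-mean probe set of each gene in cells given pI:pC (left) and untreated cells (right), with a marker for each array and a line joining the 2 arrays of a cell line. Each panel spans the same number of log2 units around its own mean. The CAOV-3 line is the steepest for INSIG1 (7.97 with pI:pC, 9.28 untreated) and HMGCS1 (7.86 with pI:pC, 8.97 untreated) and nearly flat for SREBF2 (7.81 with pI:pC, 7.89 untreated).

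Over the 4 lines the change was not larger than the spread between lines for any of the genes. With limma, blocking on cell line, 0 of the 15 probe sets passed at an adjusted p under 0.05, as did 0 of all 22215 (0%), and the smallest adjusted p was 0.996 for the members and for all. At an unadjusted p under 0.05 there was 1 of the 15, SQLE 213562_s_at (unadjusted p = 0.0241), and 855 of all. The mean change was negative for 13 of the 15 probe sets and positive for the 2 of SREBF2. By gene, taking the probe set with the highest mean, 6 of 7 mean changes were negative, against 46.3% of all genes. Their median was -0.233, against 0.007 over all genes, and without CAOV-3 it was -0.005. In DOV-13, 12 of the 15 probe sets were higher and 3 lower, a split that became 8 and 7 once the arrays were centred on their medians or quantile normalized again.

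**Figure D3:**
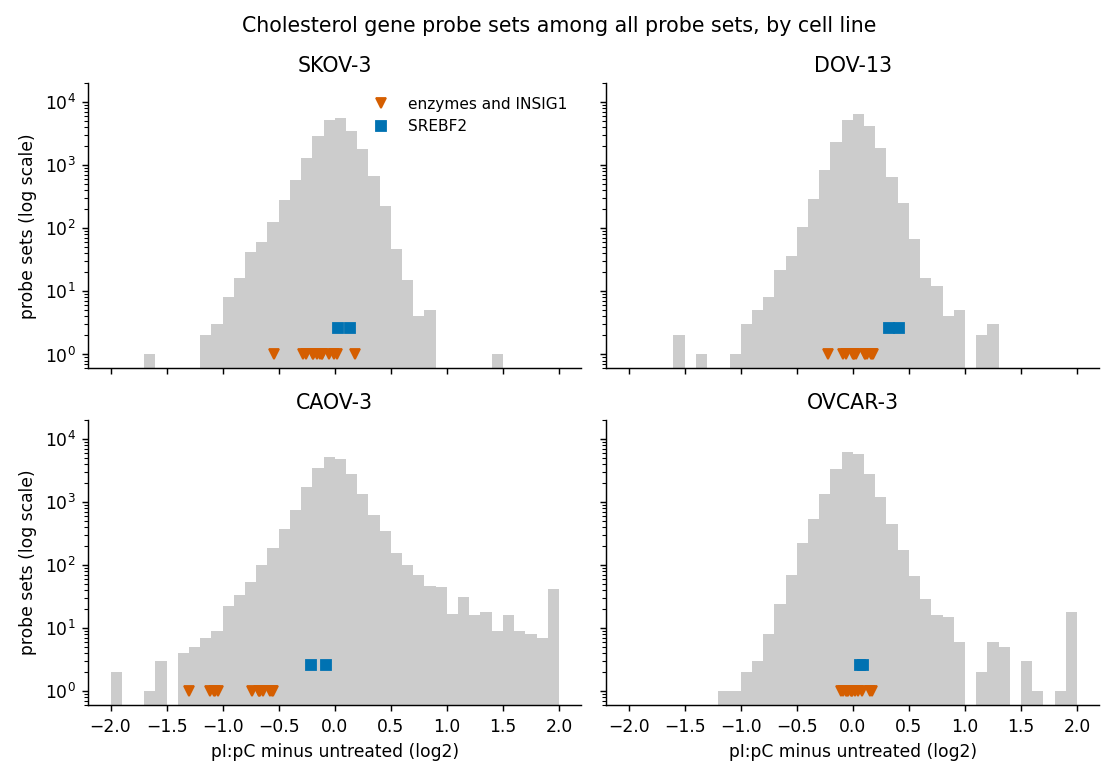
Distribution of the difference in log2 level, pI:pC minus untreated, over 22215 probe sets in each cell line (grey bars, log scale of counts, differences beyond the axis gathered in the outer bars). Triangles mark the 13 enzyme and INSIG1 probe sets and squares the 2 of SREBF2. The triangles lie in the lower tail in CAOV-3 (-1.30 to -0.55) and around 0 in OVCAR-3 (-0.11 to 0.17).

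The lines themselves differed in the level of these genes. By limma's F test between the 4 lines, in the same fit, 13 of the 15 probe sets passed, as did 65.5% of all probe sets, so most transcripts on the array separate the lines too. The 2 that did not pass were INSIG1 201626_at (adjusted p = 0.119) and 201627_s_at (adjusted p = 0.0708). Without CAOV-3 all 15 passed. The share of all probe sets that passed in that run was not taken, so this count cannot be called particular to these genes. The 2 arrays of a line carry different treatments, so this test sets the lines against the spread left after a common treatment difference, and a large shift in a single line counts as spread.

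HMGCS1 had its highest level in OVCAR-3, with a 2-array mean of 10.54 on 221750_at, followed by SKOV-3 (9.54), CAOV-3 (8.42) and DOV-13 (7.64). Each neighbouring pair in that order differed on this probe set (adjusted p = 0.0172, 0.0098 and 0.0475). On 205822_s_at the last pair, CAOV-3 and DOV-13, did not (adjusted p = 0.346). SQLE 209218_at was highest in SKOV-3 (10.08) and OVCAR-3 (9.78), which did not differ beyond their spread (adjusted p = 0.21), and lower in CAOV-3 (9.02) and DOV-13 (8.95), which did not either (adjusted p = 0.762). OVCAR-3 was above CAOV-3 by 0.76 (adjusted p = 0.00913). The other SQLE probe sets gave other steps. On 213562_s_at SKOV-3 was above OVCAR-3 by 0.66 (adjusted p = 0.0348) and OVCAR-3 above DOV-13 by 0.63 (adjusted p = 0.0429), and on 213577_at no neighbouring pair passed (OVCAR-3 over CAOV-3 adjusted p = 0.284).

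IDI1 204615_x_at was highest in CAOV-3 (10.25), above SKOV-3 (9.52) by 0.74 (adjusted p = 0.00405). SKOV-3 was above OVCAR-3 (9.03) by 0.48 (adjusted p = 0.0288), and OVCAR-3 and DOV-13 (9.01) did not differ beyond their spread (adjusted p = 0.9). MSMO1 was lowest in DOV-13 (9.20), below SKOV-3 (10.04) by 0.84 (adjusted p = 0.00642), and its other neighbouring pairs did not pass. DHCR7 was lowest in SKOV-3 on both probe sets, 0.80 below DOV-13 on 201790_s_at (adjusted p = 0.0106), while DOV-13, OVCAR-3 and CAOV-3 followed each other without a called step.

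SREBF2 201247_at was lowest in DOV-13 (7.13), 0.72 below SKOV-3 (adjusted p = 0.00256), and the other 3 lines lay within 7.84 to 7.91. On 201248_s_at no neighbouring pair passed (OVCAR-3 over DOV-13 adjusted p = 0.19), while SKOV-3 (7.39) was above OVCAR-3 (6.95) by 0.44 (adjusted p = 0.0216) and above DOV-13 (6.72) by 0.67 (adjusted p = 0.0043). For INSIG1 no neighbouring pair differed on 201626_at or 201627_s_at, and on 201625_s_at SKOV-3 was 0.84 below OVCAR-3 (adjusted p = 0.0267). Over all 15 probe sets, 17 of the 45 neighbouring pairs passed. The matching share over all probe sets was not taken, and the shares that follow are for fixed pairs of lines. By pair of lines, 14 of the 15 probe sets differed between SKOV-3 and DOV-13 (34.8% of all probe sets), 10 between SKOV-3 and CAOV-3 (46.8%), 9 between SKOV-3 and OVCAR-3 (47.1%), 6 between DOV-13 and CAOV-3 (46.4%), 8 between DOV-13 and OVCAR-3 (46%) and 6 between CAOV-3 and OVCAR-3 (47.4%).

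The place of CAOV-3 among the lines was not the same with and without pI:pC. It had the highest of the 4 treated levels for 2 of the 15 probe sets, both of IDI1, against the highest of the 4 untreated levels for 9. It had the lowest treated level for 5 probe sets, against the lowest untreated level for 0. OVCAR-3, by contrast, was highest for 5 treated and 2 untreated probe sets, and DOV-13 was highest for 4 treated and 0 untreated ones. The same counts over all probe sets were not taken, so the shift cannot be called particular to these genes. For CAOV-3 it restates the differences given above.

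The other genes of the pathway were taken from lists by their known function, with 1 probe set per gene, and from each list the 3 genes with the greatest mean change in size are named, among others. Of 13 measured sterol and isoprenoid enzymes outside the members, 12 were lower after pI:pC in CAOV-3, where 54% of all genes were lower. Their median difference there was -0.26, against -0.02 for all genes, and the range was -0.46 to 0.06. Thus 0 reached -0.5 in that line, where 6 of the 7 members and 2.06% of all genes did. Members and lists were chosen with earlier results of these data known, so this contrast may follow from the choice. MVK, named after its values were seen, was the 1 enzyme that was higher in CAOV-3 (0.06). Its other 2 probe sets had -0.43 and -0.12 in that line. In the other lines the medians of these 13 enzymes were -0.09 in SKOV-3, -0.04 in OVCAR-3 and 0.02 in DOV-13. The DOV-13 median turned to -0.02 after quantile normalization and -0.03 after centring. HSD17B7, a sterol keto-reductase, had -0.40 in SKOV-3, 0.10 in DOV-13, -0.33 in CAOV-3 and -0.17 in OVCAR-3. PMVK, phosphomevalonate kinase, had -0.28 in SKOV-3 and -0.10 to -0.08 in the other lines. LBR, the lamin B receptor, which has sterol reductase activity, had a mean change of -0.13 ± 0.18 (SD, n = 4 lines), with -0.39 in CAOV-3, and -0.047 without CAOV-3. None of the 40 measured genes in these lists passed limma's test over the lines (smallest adjusted p over all probe sets 0.996), and 24 had a negative mean change.

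Fatty acid genes that SREBP factors also drive had a median of -0.37 in CAOV-3, with 6 of 7 lower, and a median within 0.03 of 0 in each other line, of a sign that in DOV-13 depended on the scaling (0.01 as deposited, -0.06 after quantile normalization). SCD, the stearoyl-CoA desaturase, read 10.72 with pI:pC and 11.44 untreated in CAOV-3, a difference of -0.71, and its 4 probe sets lay between -0.71 and -0.54 in that line. In SKOV-3 the same 4 probe sets lay between -0.70 and -0.12, so 1 of them was lower there (-0.70) than in CAOV-3 (-0.57). They lay between -0.10 and 0.27 in DOV-13 and between 0.04 and 0.31 in OVCAR-3. FADS2, a fatty acid desaturase, had -0.49 in CAOV-3 and 0.01 to 0.03 in the other lines, and ACACA, acetyl-CoA carboxylase, had -0.39 in CAOV-3 and -0.01 to 0.10 elsewhere on its brighter probe set, but 0.23 in CAOV-3 and 0.00 to 0.20 elsewhere on the other.

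Genes of sterol export, storage and oxysterol formation had a median of 0.21 in CAOV-3, with 7 of 8 higher (6 after quantile normalization), where 5501 of all 11963 genes were higher. Of the 7, NR1H3, APOE and CYP27A1, named after their values were seen, differed by 0.01 to 0.02, and the other 2 APOE probe sets had -0.09 and -0.24. Only CH25H reached 0.5. CH25H, the cholesterol 25-hydroxylase, read 4.16 in SKOV-3, 4.08 in DOV-13, 6.49 in CAOV-3 and 4.22 in OVCAR-3 after pI:pC, against 4.24 in SKOV-3, 3.97 in DOV-13, 4.25 in CAOV-3 and 4.23 in OVCAR-3 untreated. Treated CAOV-3 was the only one of the 8 arrays on which CH25H was above the median probe set, with a measured difference of 2.23. The untreated CAOV-3 level of 4.25 was like that of PTPRC (4.29), a leukocyte gene, so 2.23 can be read only as a lower limit. SOAT1, which esterifies cholesterol for storage, had 0.48 in CAOV-3, 0.33 in DOV-13, -0.09 in OVCAR-3 and -0.28 in SKOV-3. ABCA1, a cholesterol exporter, had 0.47 in CAOV-3 on its brightest probe set, where it read 4.92 with pI:pC and 4.45 untreated, but 0.03 and -0.11 on the other 2, and both levels lay below the array's median probe set.

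Among the regulators, INSIG2, the relative of INSIG1, read 7.65 with pI:pC and 7.15 untreated in CAOV-3, a difference of 0.50, opposite in sign to the -1.30 of INSIG1 in the same array pair. The difference was 0.29 in DOV-13, and it was negative in SKOV-3 (-0.41) and OVCAR-3 (-0.31). SCAP, the escort of SREBP proteins, differed by -0.03 to 0.08 in the 4 lines, and SREBF1, which encodes SREBP-1, by -0.10 to 0.08. ERLIN2, which takes part in breaking down sterol-regulated proteins, had -0.32 and -0.18 on its 2 probe sets in CAOV-3 and -0.09 to 0.21 elsewhere. ERLIN1 had -0.02 to 0.09 over the lines on its brighter probe set, but -0.49 in SKOV-3 and -0.03 to 0.18 elsewhere on the other. RNF139, a ubiquitin ligase, had -0.21 to -0.02.

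The 4 measured uptake and transport genes lay between -0.07 and 0.05 in CAOV-3. SCARB1, a lipoprotein receptor, had 0.48 in SKOV-3 on its brightest probe set, but -0.20 and 0.07 on the other 2, and between -0.03 and 0.06 on all 3 in CAOV-3. MYLIP, which marks the low-density lipoprotein receptor for destruction, had 0.42 in DOV-13 and 0.05 in CAOV-3, and NPC1, which moves cholesterol out of lysosomes, had -0.14 to 0.21 on its brighter probe set and -0.26 to 0.34 on the other.

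**Figure D4:**
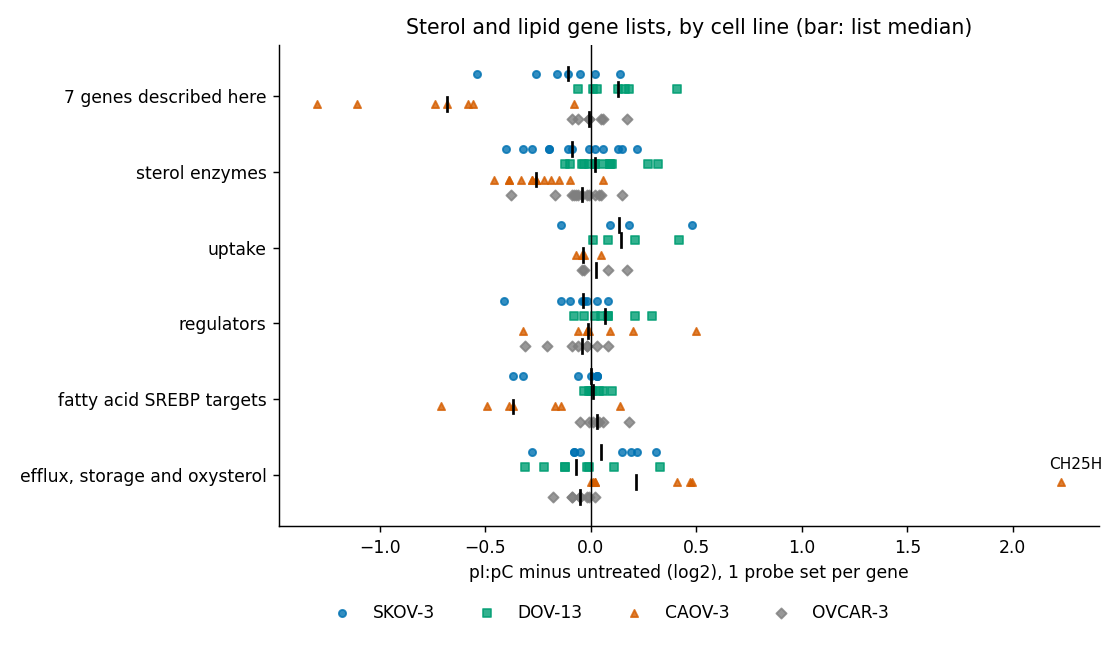
Difference in log2 level, pI:pC minus untreated, of the 7 genes and of 5 lists of related genes (rows), with a marker for each gene in each cell line and a black bar at the list median. In CAOV-3 the medians are -0.68 for the 7 genes, -0.26 for the other sterol enzymes, -0.37 for the fatty acid genes and 0.21 for export, storage and oxysterol genes, where CH25H stands at 2.23, a lower limit because its untreated level was dim.

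The interferon response and the condition of the RNA were measured beside these genes. The 25 measured interferon-stimulated genes had a median difference of 1.82 in CAOV-3 and 1.35 in OVCAR-3. It was 0.12 in SKOV-3 and 0.06 in DOV-13. OVCAR-3 had 24 of these 25 higher, where 5538 of all 11963 genes were higher. The 13 enzyme and INSIG1 probe sets lay between -0.11 and 0.17 in that array pair. The part of the interferon response in the CAOV-3 values was not tested. The 3' minus 5' difference of the beta-actin control probe sets, which grows as RNA degrades, was 0.94 with pI:pC and 0.80 untreated in CAOV-3, and the 4 lines spanned 0.64 to 1.26 with pI:pC and 0.58 to 1.32 untreated. For GAPDH it was 0.11 with pI:pC and 0.12 untreated in CAOV-3. Their part in the result was not tested. Array medians lay between 6.2 and 6.3. Of 11 markers of epithelial ovarian carcinoma, 5 to 10 were above the array's median probe set, against 0 or 1 of 4 leukocyte, 0 of 4 endothelial and 1 of 4 fibroblast markers. The epithelial keratins KRT8 and KRT18 read 10.53 or more on all 8 arrays, EPCAM was low in DOV-13 (5.94 with pI:pC, 5.42 untreated), and the leukocyte marker PTPRC read 4.41 or less on each.

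Over the 8 arrays the members did not share 1 pattern of level. Among 5981 other genes at or above the median gene, SQLE ranked 233rd in likeness to HMGCS1 (Pearson r = 0.844), MSMO1 353rd (r = 0.799) and INSIG1 3463rd (r = -0.211). The 5 genes most like HMGCS1 were AOPEP, DSP, PARK7, CNOT7 and ASAH1 (r = 0.972 to 0.983), and those most like INSIG1 were HS2ST1, AURKA, PPP2R5C, ARL3 and TMEM168 (r = 0.907 to 0.967). DHCR7 ranked 26th for INSIG1 (r = 0.801). These correlations describe 8 arrays that come in 4 pairs of a line, and those of HMGCS1 mostly follow the levels of the lines. INSIG1 201626_at did not pass the F test between lines (adjusted p = 0.119). Its largest difference within a line was in the CAOV-3 pair (7.97 with pI:pC, 9.28 untreated), so its correlations also follow that 1 pair.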

How the data were processed

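RNA was measured on 8 Affymetrix arrays, 1 treated with pI:pC and 1 untreated for each of 4 cell lines. The values are log2 expression levels as the authors deposited them, and the submitters' processing notes name RMA. RMA corrects background, brings arrays to a common distribution and summarises probes, and it tends to understate differences of dim probe sets. A version of RMA was not given in the sources used here. Precision is limited by the number of arrays.

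Gene symbols came from the platform annotation: 19064 carry 1 symbol, 1043 several and 2108 none, besides 62 array controls, which were left out. Gene coordinates are those of GRCh38.p14. For a gene-wise value the probe set with the highest mean was used. Differences are treated minus untreated. Treatment was tested with limma 3.58.1 under R 4.3.3 (lmFit, eBayes), blocking on cell line, over all 22215 probe sets, two-sided with Benjamini-Hochberg adjustment and a threshold of 0.05 (3 residual and 4.59 prior degrees of freedom). The labels pair the arrays by cell line, and deviations from the group means correlated at 0.936 to 0.965 within pairs. Lines were compared with the moderated F test and with tests of the 6 pairs of lines in the same fit. The code was tested on simulated data. Named genes are the members, per list the 3 genes whose mean change was greatest in size, a few fixed by name, and the 5 genes most like HMGCS1 and INSIG1. Genes of these lists without a probe set under the rule were not analysed here. Members and lists were chosen with earlier results of these data known, so the CAOV-3 pattern is no independent support for the choice.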

Additional observations from a re-analysis of the deposited data

Results flagged for a closer look

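In 5 of 45 groups of 4 values examined, 1 line stood further from the others than Dixon's criterion allows, and chance flags about 1 in 20 groups. In 3 of the 5 it was the CAOV-3 difference. SQLE 213577_at had -0.67 in CAOV-3, against 0.08 to 0.18 in the other lines, MSMO1 209146_at had -0.74 against -0.11 to 0.01, and IDI1 204615_x_at had -0.56 against -0.06 to 0.03. The level of DHCR7 201790_s_at in treated SKOV-3 cells was 6.90, and the other treated lines lay at 7.88 to 8.07. The level of SREBF2 201247_at in untreated DOV-13 cells was 6.92, and the other untreated lines lay at 7.78 to 7.89. Each value rests on 1 array or 1 array pair, and the probe sets share the same arrays. The share of such flags over all probe sets was not taken, and the members were chosen with earlier results known. The count of flags therefore cannot be called particular to these genes or set against chance.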

How the results depend on the processing

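No probe set passed over the 4 lines under any alternative run, which were the fit with no replicate block (0 called without the pairing by line), each line left out in turn (0 in each, with a smallest adjusted p of 0.225 without SKOV-3), genes in place of probe sets, a filter at the median level, quantile normalization once more, median centring and eBayes with trend and robust. The mean change kept its sign in all of these for 10 of the 15 probe sets. Without CAOV-3 it turned positive for HMGCS1 205822_s_at (0.016, and down to -0.261 with another line left out) and 221750_at (0.022, down to -0.407) and for SQLE 209218_at (0.021, down to -0.247) and 213577_at (0.125, down to -0.159). Without DOV-13 it turned negative for SREBF2 201248_s_at (-0.033, up to 0.144 with another line left out). The median over the 7 genes ranged from -0.314 to -0.005 when a line was left out, was -0.256 after quantile normalization and -0.246 after centring. In CAOV-3 13 probe sets were lower by 0.5 or more, 12 with a filter on dim probe sets, 13 under both scalings and 5 at a threshold of 1. In SKOV-3 the count of 1 became 0 at a threshold of 1 and after quantile normalization. The F test called 9 of the 15 without SKOV-3 and 15 without CAOV-3, the lowest and highest when a line was left out. It called 13 under the settings that kept every line. The tests of 2 lines called 53 of the 90 comparisons, and 49 to 53 under the alternatives. Shares over all probe sets were not taken for the alternative runs, nor for the 90 comparisons together. Of the 40 related genes 24 had a negative mean change, 20 to 26 when a line was left out, 29 after quantile normalization and 27 after centring. Under these 2 scalings 6 and 5 of the 8 regulators had a negative mean change, against 3 as deposited, and 7 of 13 sterol enzymes were lower in DOV-13, against 5. The cause of these shifts was not tested. Dim probe sets limit what can be seen, since RMA tends to compress their differences.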
